A study of Homo sapiens with 9 samples.

Results

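The mitochondrial ribosomal proteins are the protein components of the ribosome that translates the messages of mitochondrial DNA. The members were taken by name from the deposited tables, as every protein-coding gene whose symbol was MRPL or MRPS followed by a number and at most a letter from A to C. The rule found 77 of 78894 genes, 49 named for the large subunit (MRPL) and 28 named for the small subunit (MRPS), and used no measured value. All 77 had enough counts to be tested, among 16908 genes tested.

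All of these proteins are encoded in the nucleus, made in the cytosol and imported, whereas the ribosomal RNAs they bind are transcribed from mitochondrial DNA. The small subunit holds the decoding site, and the large subunit holds the peptidyl transferase centre and the exit tunnel. Some members descend from bacterial ribosomal proteins and others are found only in mitochondrial ribosomes. Both subunits are needed for synthesis of the core respiratory chain subunits that mitochondria encode themselves, and the ribosome reads its codons with tRNAs charged by enzymes such as SARS2, the mitochondrial seryl-tRNA synthetase.

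The libraries came from Hap1, a near-haploid human cell line, in which the endogenous SARS2 gene had been deleted and an inducible, FLAG-tagged SARS2 copy was kept off by growth for 6 days without doxycycline. Each of the 3 groups also carried a constitutive myc-tagged SARS2, which was WT, R227Q or H448L, with 3 libraries per group. Its label also reads int14, which is not explained there. The labels do not say whether a group is 1 clone or whether its libraries are separate cultures, and each p-value below is set against library-to-library spread that may be technical. The comparisons ask how each variant differs from WT, with deletion and inducible copy common to all groups.

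Total counts per library were 9900899 to 12991061. SARS2, the gene under study, was at 7.70, 8.54 and 6.20 counts per 1000000 counts (CPM) in WT, 8.68, 8.35 and 7.09 CPM in R227Q, and 7.88, 8.68 and 7.93 CPM in H448L. The groups overlapped and the differences did not pass the test, with log2 fold changes of 0.18 ± 0.12 (SE) for R227Q and 0.28 ± 0.15 for H448L. The level therefore did not tell the constitutive copies apart. The libraries were in 2 tables, whose column names begin with SDKYMR (WT 1, WT 2 and R227Q 1) or 4LJFHN (WT 3, R227Q 2, R227Q 3 and all of H448L), taken here as 2 submissions to the sequencing service. Of all genes tested, 43.8% differed between them, so every comparison was fitted with the submission as a term. H448L had 1 WT library, WT 3, in its own submission. The submission term in its comparison came from WT and R227Q, so WT 1, WT 2 and the R227Q libraries also entered it. Markers of haematopoietic cells summed to 8.82 to 11.2 CPM in WT, 10.2 to 11.97 CPM in R227Q and 10.7 to 10.9 CPM in H448L. Those of epithelial cells summed to 78.0 to 81.5, 84.8 to 92.2 and 79.2 to 89.8 CPM. Those of fibroblasts summed to 19.6 to 55.5, 25.5 to 68.4 and 57.9 to 69.6 CPM and were higher in all 6 libraries of 4LJFHN than in the others. None of these markers was at 0 in every library. Of the 9 marker genes tested, KRT18 (0.15 ± 0.05), COL1A1 (0.29 ± 0.07) and THY1 (0.86 ± 0.29) rose in R227Q, where the epithelial sums also lay above every WT library, and 0 passed in H448L. The R227Q values of 1 of 3 epithelial, 2 of 4 fibroblast and 1 of 2 haematopoietic markers tested were below 0, and 0 passed as lower. The marker lists thus did not move as a whole. The markers that passed rose in the comparison that gave the members' calls described below, and their part in those calls was not tested.

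R227Q was compared with WT first. By edgeR's quasi-likelihood test, which called 17.4% of all genes tested, 24 of 77 members fell and 0 rose, with 53 not passing an adjusted p of 0.05. The 24 members were 31.2% of the group, beside 9.91% of all genes tested that were lower and 7.5% that were higher. The changes were small. The median log2 fold change of the 77 members was -0.09, against 0.00 for all genes, and 57 of the 77 values were below 0. Within submissions, 50 of 77 members (64.9%) were lower in R227Q in both, 15 were higher in both and 12 differed in sign. Among all genes, 34.9% were lower in both submissions and 34.3% were higher in both. The count of members that fell rested on WT 3 and R227Q 1. Among all genes, 2944 passed in either direction with all libraries, 1093 without WT 3 and 1278 without R227Q 1, so calls became fewer in general. The count of members that fell was 6 without WT 3, 9 without R227Q 1, and 19 to 26 without any other library. With no submission term it was 0, and with the 4LJFHN libraries alone it was 6. A member passed as higher in some of these fits: MRPL10 without R227Q 1, H448L 2 or H448L 3, and MRPL48 without R227Q 2. With upper-quartile factors 19 members fell and 2 rose, MRPL10 and MRPL45. DESeq2 called 18 members, all lower. It lost the calls of MRPL19, MRPL33, MRPL54, MRPL58, MRPS10, MRPS25 and MRPS33. Its 18 calls also took in a member that edgeR did not call.

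In H448L, where 7.97% of all genes tested passed, 6 of 77 members fell (7.79%, beside 4.99% of all genes) and 1 rose (beside 2.97%), with 70 not passing. The median of the members was -0.07, against 0.01 for all genes. Within 4LJFHN, 55 of 77 members (71.4%) were lower in H448L than in WT 3, as were 49.5% of all genes. Without WT 3, 3 members fell and 0 rose, and 253 of all genes passed in either direction. Without H448L 2, 3 members fell and 1 rose, and 926 of all genes passed. DESeq2 called 4 members, all lower. With the 4LJFHN libraries alone 3 fell and 1 rose, and with no submission term 0 passed. Both variants were compared with the same WT libraries, so the 2 sets of calls are not independent.

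Leaving out each of the 9 libraries in turn kept the R227Q call of 5 members, MRPL3, MRPL20, MRPL47, MRPS12 and MRPS22, and the H448L call of MRPL3, MRPL20 and MRPL47. Stretches upstream of their RefSeq start sites are shown because all 5 hold the ETS-type motif CCGGAAG, in capitals (as CTTCCGG where it lies on the other strand). Each is written on the gene's own strand, 5′ to 3′, from the RefSeq promoter table (GRCh38.p14). They are MRPL3 at chr3:131502972-131503091 (minus strand), MRPL20 at chr1:1407294-1407413 (minus), MRPL47 at chr3:179604639-179604758 (minus), MRPS22 at chr3:139343874-139343955 (plus) and MRPS12 at chr19:38930924-38930953 (plus). Each runs up to the base before the RefSeq start except that of MRPS22, which ends at 139343955 for a start at 139343994. For MRPS12 the start used was the listed one farther downstream, at 38930954. GENCODE places other starts farther upstream, so 12, 20 and 16 of the printed bases of MRPL3, MRPL20 and MRPL47, and all 30 of MRPS12, lie in annotated exons.
MRPL3: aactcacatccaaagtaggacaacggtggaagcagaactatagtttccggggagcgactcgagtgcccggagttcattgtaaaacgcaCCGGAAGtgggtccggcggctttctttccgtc
MRPL20: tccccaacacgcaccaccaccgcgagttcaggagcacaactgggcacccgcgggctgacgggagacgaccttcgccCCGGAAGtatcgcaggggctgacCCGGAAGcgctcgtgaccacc
MRPL47: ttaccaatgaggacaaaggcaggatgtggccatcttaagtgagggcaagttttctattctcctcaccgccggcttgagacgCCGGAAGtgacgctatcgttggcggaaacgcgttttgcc
MRPS22: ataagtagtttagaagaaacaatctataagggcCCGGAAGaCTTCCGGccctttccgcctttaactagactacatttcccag
MRPS12: ctgcacggatagcgcCCGGAAGaggctaga

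The match began 32 bases before the start in MRPL3, 44 and 21 bases before it in MRPL20, and 39 bases before it in MRPL47. In MRPS22 the 2 matches, 87 and 79 bases before the start, lay on opposite strands with 1 base between them. In MRPS12 the match began 15 bases before the listed start at 38930954. The other listed start of MRPS12, at 38930944, lies inside the printed stretch and within the match. The motif was common in the group as a whole. In the window from 250 bases before to 50 bases after the start, 29 of the 69 members in the table held CCGGAAG on either strand (42.0%), against 19.3% of the promoters of tested protein-coding genes and 10.7% of all 27305 promoters. It was in 12 of 23 members that fell in R227Q (52.2%) and in 17 of 46 that did not (37.0%), and in 17 of 42 large-subunit and 12 of 27 small-subunit members. The YY1-type motif AAGATGGCG was in 13 of 69 members (18.8%, against 3.98% of promoters of tested protein-coding genes). The SP1-type motif GGGCGG was in 42 (60.9%, against 71.6%). The NRF1 consensus motif and the C/EBP-ATF-type motif TGATGNAAT were each in 1 member, MRPL17 and MRPL55 respectively, and the cyclic AMP response element TGACGTCA was in 0. All searches covered both strands. A match of letters is a description and not a bound site. MRPL2, MRPL10, MRPL13, MRPL15, MRPL21, MRPL23, MRPL35 and MRPS28 had no entry.

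MRPL3 is a large-subunit protein of bacterial descent that reaches towards the peptidyl transferase centre. Its gene lies on chromosome 3 (GRCh38, 131462212 to 131502983, minus strand). MRPL3 was at 233, 218 and 267 CPM in WT, 163, 199 and 197 CPM in R227Q, and 222, 218 and 214 CPM in H448L. The R227Q libraries all lay below the WT libraries, and the H448L libraries overlapped the lower WT values. With the submission in the fit, MRPL3 fell in R227Q by 0.46 ± 0.04 on the log2 scale (SE, n = 3 libraries, adjusted p = 3.5e-09), a 1.37-fold lower level. In H448L it fell by 0.33 ± 0.05 (adjusted p = 3.2e-05), or 1.25-fold. The R227Q difference was -0.47 within SDKYMR and -0.44 within 4LJFHN, so the 2 submissions gave nearly the same value.

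MRPL20, whose bacterial counterpart joins the large subunit early in assembly, lies on chromosome 1 (1401908 to 1407313, minus strand). It was at 309, 322 and 219.9 CPM in WT, 244, 182 and 185 CPM in R227Q, and 195, 188 and 194 CPM in H448L. Within each submission the variant libraries were below the WT libraries. MRPL20 fell by 0.33 ± 0.04 in R227Q (adjusted p = 1.2e-06) and by 0.25 ± 0.05 in H448L (adjusted p = 0.0010). Its exons share 139 bases with an antisense gene, AL391244.1, and 293 bases (10.5%) with RN7SL657P on the same strand.

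MRPL47 sits at the rim of the exit tunnel, where the new chain leaves the ribosome. It lies on chromosome 3 (179588285 to 179604654, minus strand). It was at 228, 219 and 252 CPM in WT, 189, 209.5 and 228 CPM in R227Q, and 216, 213 and 202 CPM in H448L. The raw levels of the groups overlapped between submissions, and within each submission WT was higher. MRPL47 fell by 0.23 ± 0.04 in R227Q (adjusted p = 3.7e-04) and by 0.29 ± 0.05 in H448L (adjusted p = 3.4e-04). It shares 124 exon bases with ACTL6A on the opposite strand, and the sources used here do not say whether counting used strand.

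**Figure D1:**
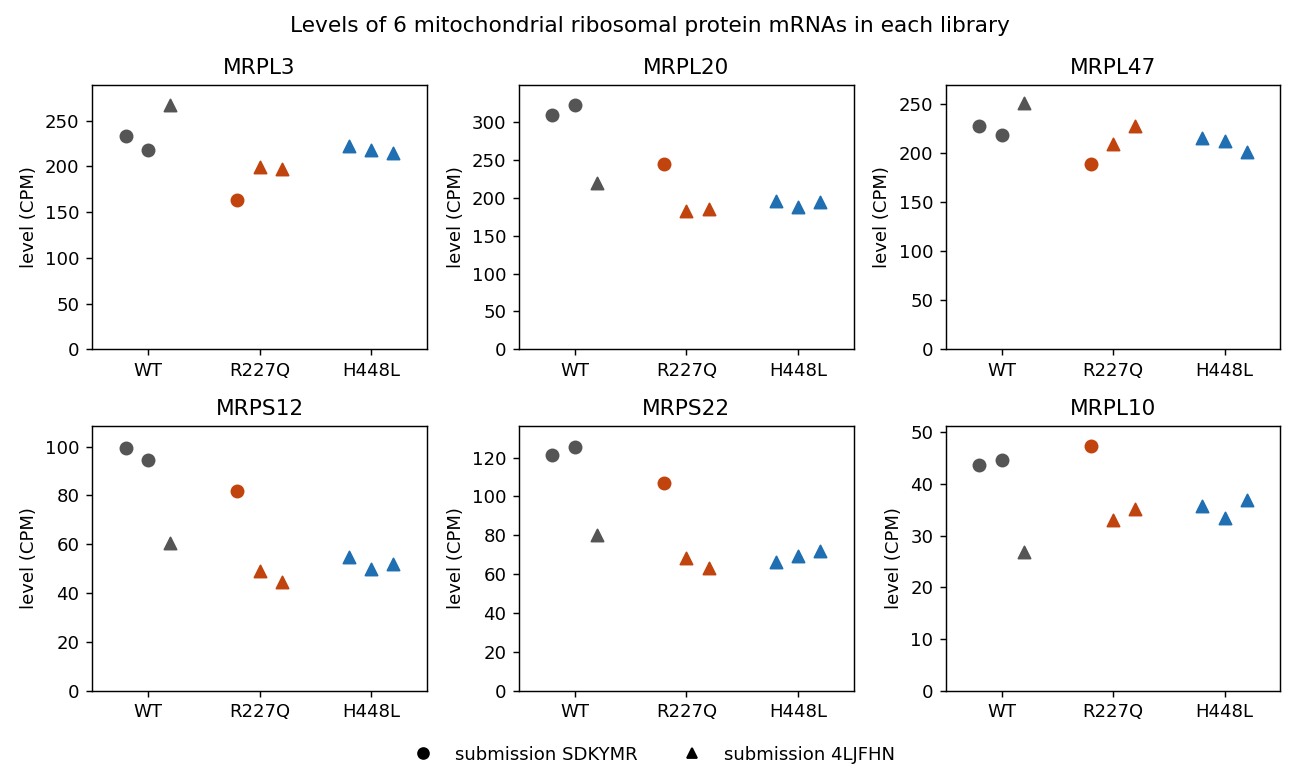
Level (CPM, linear axis from 0) of 6 members in each of the 9 libraries, by SARS2 group, with circles for SDKYMR and triangles for 4LJFHN. Within a marker shape the variant libraries sit below WT for MRPL3, MRPL20, MRPL47, MRPS12 and MRPS22, and above WT for MRPL10.

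Other large-subunit members fell in R227Q by 0.14 to 0.25. MRPL50, which has no bacterial counterpart, was at 52.8, 50.5 and 42.6 CPM in WT and 43.5, 36.5 and 35.6 CPM in R227Q, and fell by 0.25 ± 0.06 (adjusted p = 0.0037). MRPL14, an interface protein that the assembly factor MALSU1 docks onto, fell by 0.22 ± 0.06. MRPL13 fell by 0.21 ± 0.05 and MRPL27, which lies near the peptidyl transferase centre, by 0.20 ± 0.05. The small proteins MRPL34 and MRPL36 each fell by 0.19 ± 0.05. MRPL58, a peptidyl-tRNA hydrolase built into the large subunit, fell by 0.17 ± 0.05, as did MRPL54, a stalk-base protein. MRPL19 and MRPL41 each fell by 0.16, and MRPL33 by 0.14 ± 0.05 with an adjusted p of 0.049. None of these 11 passed the test in H448L, where their log2 values lay between -0.22 (MRPL50) and -0.05 (MRPL36). The R227Q call of MRPL33 was kept in 2 of the 9 fits that left out 1 library.

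Among small-subunit members, MRPS12 had the lowest R227Q value. It is a decoding-site protein, and its gene is the head-to-head neighbour of SARS2 on chromosome 19 (38930548 to 38933162, plus strand). MRPS12 was at 99.5, 94.4 and 60.5 CPM in WT, 82.0, 48.9 and 44.7 CPM in R227Q, and 54.9, 50.02 and 52.0 CPM in H448L. Within each submission the variants were lower than WT. It fell in R227Q by 0.31 ± 0.06 (adjusted p = 1.8e-04), and the value in H448L was -0.18 ± 0.07 (adjusted p = 0.10). The listed start sites of SARS2 and MRPS12 have 180 or 190 bases between them, and the annotated exons of the 2 genes share 349 bases, 16.3% of those of MRPS12. Reads from the 2 genes there cannot be told apart without strand. All 3 groups carried the SARS2 deletion, so its effect on MRPS12 is not in this comparison.

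MRPS22, a small-subunit protein specific to mitochondria, lies on chromosome 3 (139005806 to 139357223, plus strand). It was at 122, 125 and 80.2 CPM in WT, 107, 68.4 and 63.2 CPM in R227Q, and 66.1, 69.2 and 71.9 CPM in H448L. Within each submission the variants lay below WT. MRPS22 fell by 0.25 ± 0.05 in R227Q (adjusted p = 4.4e-04) and by 0.21 ± 0.06 in H448L (adjusted p = 0.027). The H448L call was lost without WT 3 (adjusted p = 0.47), H448L 1 or H448L 2. It was also lost with upper-quartile factors (0.051), with 4LJFHN alone (0.061) and with the replicate block (0.13).

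MRPS17, a protein of bacterial descent, was at 52.8, 57.7 and 56.6 CPM in WT, 47.7, 46.9 and 46.8 CPM in R227Q, and 45.7, 48.6 and 50.4 CPM in H448L. Every variant library was below every WT library. MRPS17 fell by 0.25 ± 0.06 in R227Q (adjusted p = 0.0023) and by 0.24 ± 0.07 in H448L (adjusted p = 0.028). MRPS6, also of bacterial descent, fell by 0.22 ± 0.05 and 0.21 ± 0.06 (adjusted p = 0.0038 and 0.035). The H448L call of MRPS17 was lost without WT 2, WT 3, R227Q 1, H448L 1 or H448L 2 (adjusted p = 0.45 without WT 3). That of MRPS6 was lost without WT 1, WT 3, R227Q 1, H448L 2 or H448L 3 (adjusted p = 0.44 without WT 3). Both calls were also lost with DESeq2 (0.077 and 0.089), with 4LJFHN alone (0.068 and 0.10) and with the replicate block (0.21 and 0.067), and that of MRPS6 with upper-quartile factors (0.062). MRPS17 shares 471 exon bases with the same-strand gene AC092647.5.

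The rest of the small-subunit calls were in R227Q alone, which is no test of a difference between the variants. MRPS33 fell by 0.23 ± 0.07 (adjusted p = 0.015). MRPS25 fell by 0.22 ± 0.06 (adjusted p = 0.0094), with 54.7, 54.0 and 47.9 CPM in WT against 44.3, 45.4 and 43.2 CPM in R227Q. MRPS15 and MRPS34 each fell by 0.19, MRPS7 by 0.17 ± 0.05 and MRPS10 by 0.14 ± 0.05 (adjusted p = 0.045). Their H448L values lay between -0.19 (MRPS25) and -0.10 (MRPS34) and did not pass. The R227Q call of MRPS10 was kept in 2 of the 9 fits that left out 1 library, and that of MRPS25 was lost without R227Q 1.

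**Figure D2:**
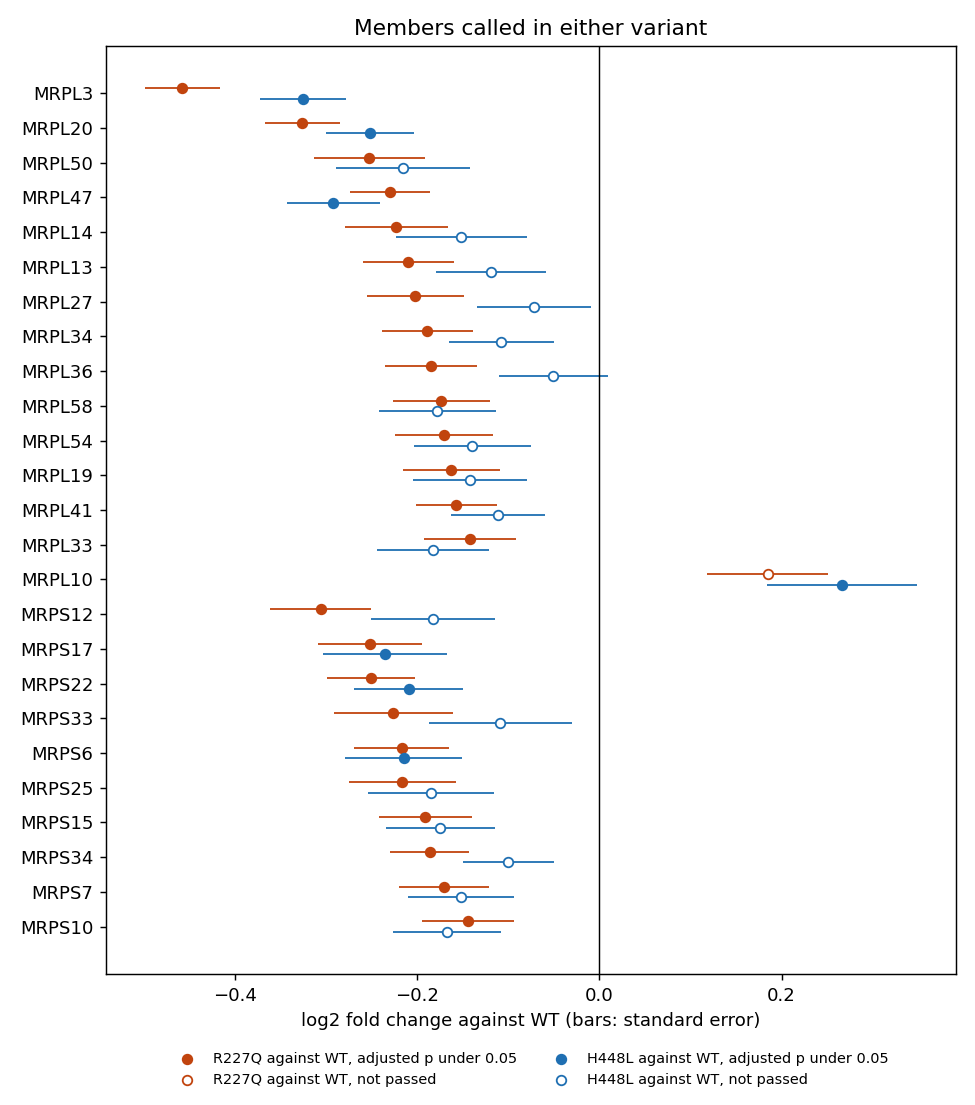
log2 fold change against WT, with its standard error as a bar, for the 25 members called in R227Q or H448L, large subunit above and small subunit below. Filled points passed an adjusted p of 0.05, and 24 of the 25 members have negative values in both variants, MRPL10 being the other.

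The 1 member that rose was MRPL10, which anchors the stalk that recruits translation factors. It was at 43.7, 44.6 and 26.9 CPM in WT, 47.2, 32.9 and 35.1 CPM in R227Q, and 35.8, 33.3 and 36.9 CPM in H448L. WT 3 was the lowest of the 9 libraries. MRPL10 rose in H448L by 0.27 ± 0.08 (adjusted p = 0.042), and the R227Q value was 0.18 ± 0.07 (adjusted p = 0.054). The call was lost without WT 1, WT 3, R227Q 2, H448L 1 or H448L 3, with a log2 value of 0.12 and an adjusted p of 0.70 without WT 3. The fit with no submission term gave -0.18.

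H448L and R227Q were compared directly in the same fit. By edgeR 0 of 77 members passed, beside 0.207% of all genes tested (0.124% lower and 0.0828% higher in H448L), and DESeq2 and limma-voom also called 0. At an unadjusted p of 0.05, 8 members differed, 4 in each direction, beside 10.9% of all genes. The smallest adjusted p was that of MRPL3, which was higher in H448L by 0.13 ± 0.04 (adjusted p = 0.19). The 77 values lay between -0.17 and 0.18, with a median of 0.02. A miss of the threshold does not show that the variants act alike. The R227Q effect was also tested for a difference between the submissions, with 4 residual degrees of freedom. R227Q 1 was the only R227Q library in SDKYMR and WT 3 the only WT library in 4LJFHN. A miss therefore does not show that the submissions gave the same effect. No member passed (beside 0% of all genes tested), 0 had an unadjusted p below 0.05, and the smallest adjusted p was 0.999.

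Calls were found in both subunits, and the difference between the subunits was described but not tested. In R227Q, 14 of 49 large-subunit members (28.6%) and 10 of 28 small-subunit members (35.7%) fell, beside 9.91% of all genes. The medians were -0.09 and -0.07. In H448L, 3 large-subunit members fell (6.12%, beside 4.99% of all genes) and 1 rose (2.04%, beside 2.97%), shares near those of all genes. Of the small-subunit members 3 fell (10.7%). The medians were -0.07 and -0.08. The large median minus the small median was -0.03 in R227Q and 0.01 in H448L. The large minus small median log2 level of each library had a residual SD of 0.0757 after group and submission were fitted. With the replicate number as a block, the H448L difference was 0.0813. MRPS30 and MRPS18A carry small-subunit names but belong to the large subunit in the human structure. Neither passed in R227Q (0.07 ± 0.06 and -0.05 ± 0.07) or in H448L (0.03 ± 0.07 and -0.16 ± 0.09), and counting them with the large subunit gave differences of -0.0027 and 0.01. MRPS36 is listed in the tables as KGD4 and so is no member, and its values of -0.05 and -0.12 did not pass.

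**Figure D3:**
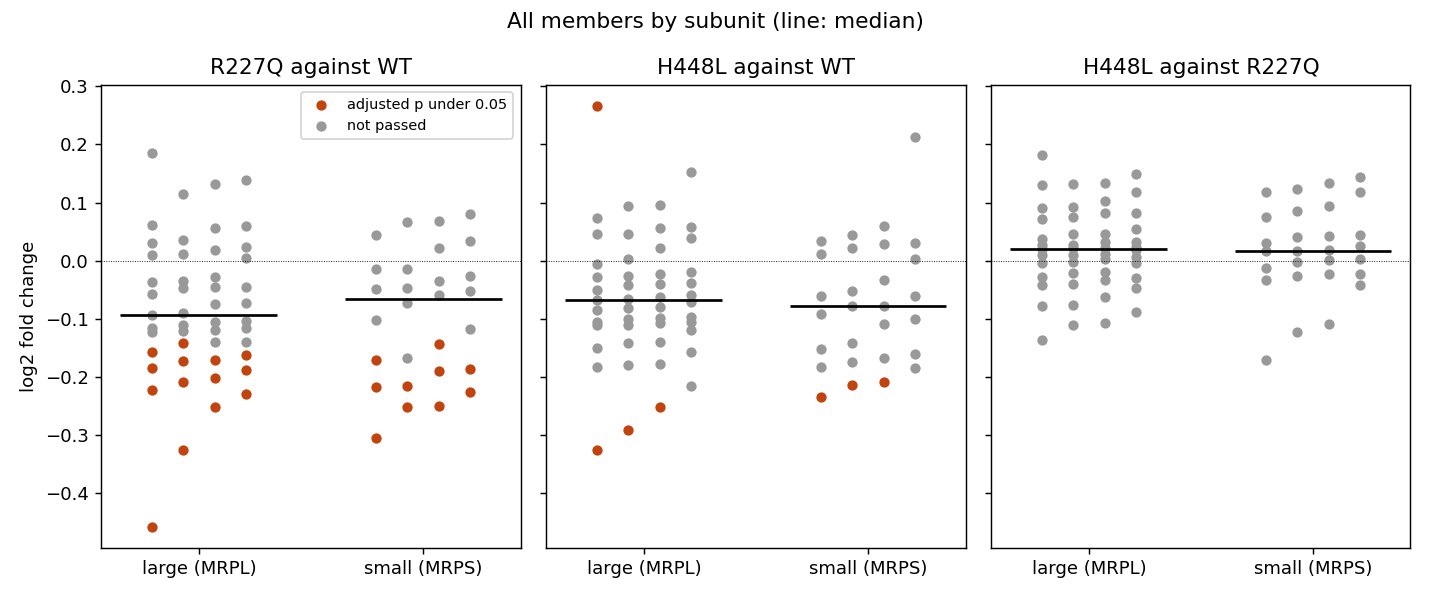
log2 fold change of all 77 members in the 3 comparisons, split into large (49) and small (28) subunit names, with the median as a line and members past an adjusted p of 0.05 in colour. The medians of the 2 subunits lie within 0.03 of each other in each panel, and no member is coloured in the direct comparison.

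Summed over the 77 members, the level was 8120 ± 244 CPM in WT (SD, n = 3), 7492 ± 236 CPM in R227Q and 7476 ± 73.4 CPM in H448L. The 3 WT sums were 8224, 8294 and 7840 CPM, and the 6 variant sums lay between 7299 and 7755 CPM, all below WT. WT 3, the WT library in 4LJFHN, had the lowest WT sum. The large-subunit sum divided by the small-subunit sum, which is not scaled by gene length, was 2.14 to 2.19 in the 3 libraries of SDKYMR and 2.25 to 2.33 in the 6 libraries of 4LJFHN. The ranges of the submissions did not overlap. The group means were 2.23 ± 0.07 in WT, 2.24 ± 0.08 in R227Q and 2.29 ± 0.04 in H448L.

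**Figure D4:**
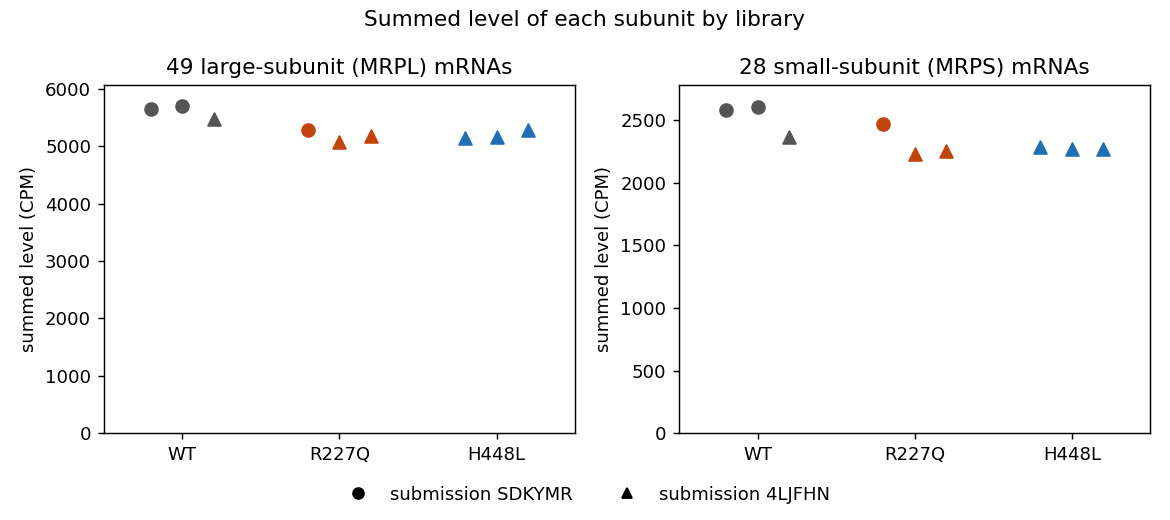
Summed level (CPM, axis from 0) of the 49 large-subunit and 28 small-subunit messages in each library, circles for SDKYMR and triangles for 4LJFHN. Within each marker shape both sums are lower in the variant libraries than in WT.

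By descent, 10 of 30 large-subunit members with a bacterial homologue fell in R227Q (33.3%, beside 9.91% of all genes), as did 4 of 19 mitochondria-specific ones (21.1%). In the small subunit the counts were 6 of 15 (40.0%) and 4 of 9 (44.4%). MRPS18A, MRPS18B, MRPS28 and MRPS30 were in neither small-subunit list. In H448L the 4 counts were 3 (10%, beside 4.99% of all genes, with 1 higher), 0, 2 (13.3%) and 1 (11.1%). By position, 1 of 5 stalk members (MRPL54), 1 of 8 central protuberance members (MRPL27) and 1 of 6 exit tunnel members (MRPL47) fell in R227Q. A single call in lists this short is read as no result beside 9.91% of all genes. The medians of these 3 lists in R227Q were 0.03, -0.02 and -0.07. The lists differ in size, and no difference between them was tested. Of the 5 ribosomal proteins with other names, DAP3, PTCD3, AURKAIP1, CHCHD1 and GADD45GIP1, 0 passed in either variant, with values from -0.08 (AURKAIP1) to 0.10 (DAP3) in R227Q and from -0.03 to 0.14 in H448L.

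Of the ribosomal RNAs, MT-RNR1 belongs to the small subunit and MT-RNR2 to the large subunit. MT-RNR1 was at 4626, 4096 and 2398 CPM in WT, 3523, 2102 and 1858 CPM in R227Q, and 2084, 2201 and 2209 CPM in H448L. It fell by 0.30 ± 0.04 in R227Q (adjusted p = 9.8e-06) and by 0.18 ± 0.05 in H448L (adjusted p = 0.023). The H448L call was lost by DESeq2 (adjusted p = 0.25), and without WT 1, WT 3 (0.24), R227Q 1 or H448L 1. MT-RNR2 was at 7343, 6479 and 5603 CPM in WT and 5688 to 7351 CPM in the variants, with values of 0.08 ± 0.04 and 0.07 ± 0.05 that did not pass. MT-TV, the tRNA that the human large subunit carries as a structural part, was at 2.56 to 6.76 CPM and did not pass (-0.29 ± 0.17 and -0.28 ± 0.22). The libraries were made by poly-A capture, so levels of these RNAs also depend on their tails.

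Genes that build or serve the ribosome were called at shares near those of all genes. Of 27 assembly factors tested, 3 fell (11.1%, beside 9.91% of all genes) and 1 rose (3.70%, beside 7.5%) in R227Q. DHX30, an RNA helicase needed for assembly, fell by 0.23 ± 0.04, MPV17L2, an inner membrane protein, by 0.39 ± 0.08 and TRUB2, a pseudouridine synthase, by 0.23 ± 0.07, whereas TRMT61B, a methyltransferase, rose by 0.26 ± 0.08. In H448L DHX30 alone passed (3.70%, beside 4.99% lower among all genes) and fell by 0.18 ± 0.05. Of 19 translation factors, 2 fell in R227Q (10.5%, beside 9.91%) and 1 in H448L (5.26%, beside 4.99%). GFM1, the elongation factor that moves the ribosome along the message, fell by 0.31 ± 0.06 in R227Q and 0.28 ± 0.07 in H448L. MRRF, the recycling factor, fell by 0.26 ± 0.07 in R227Q. Most calls among the cytosolic ribosomal proteins were in the other direction. Of 78 tested, 33 rose (42.3%, beside 7.5% of all genes) and 5 fell (6.41%, beside 9.91%) in R227Q, with a median of 0.09. In H448L 22 rose (28.2%, beside 2.97%) and 4 fell (5.13%, beside 4.99%), also with a median of 0.09. RPS3A, a small-subunit protein, rose by 0.28 in R227Q.

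More members differed between submissions than between SARS2 groups. Between 4LJFHN and SDKYMR 44 of 77 members were lower and 16 were higher (beside 23% and 20.8% of all genes tested), with a median of -0.18. By subunit, 26 of 49 large-subunit members were lower and 15 higher, against 18 and 1 of 28 small-subunit members. The widest difference was that of MRPL39, a large-subunit protein specific to mitochondria. It was at 24.9, 23.4 and 23.6 CPM in the 3 libraries of SDKYMR and at 2.40 to 4.72 CPM in the 6 libraries of 4LJFHN, a log2 difference of -2.83 ± 0.13. MRPL39 did not pass in R227Q (-0.03 ± 0.11) or in H448L (0.15 ± 0.21). Its lowest count was 27, whereas the other 76 members had at least 240 counts in every library.

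**Figure D5:**
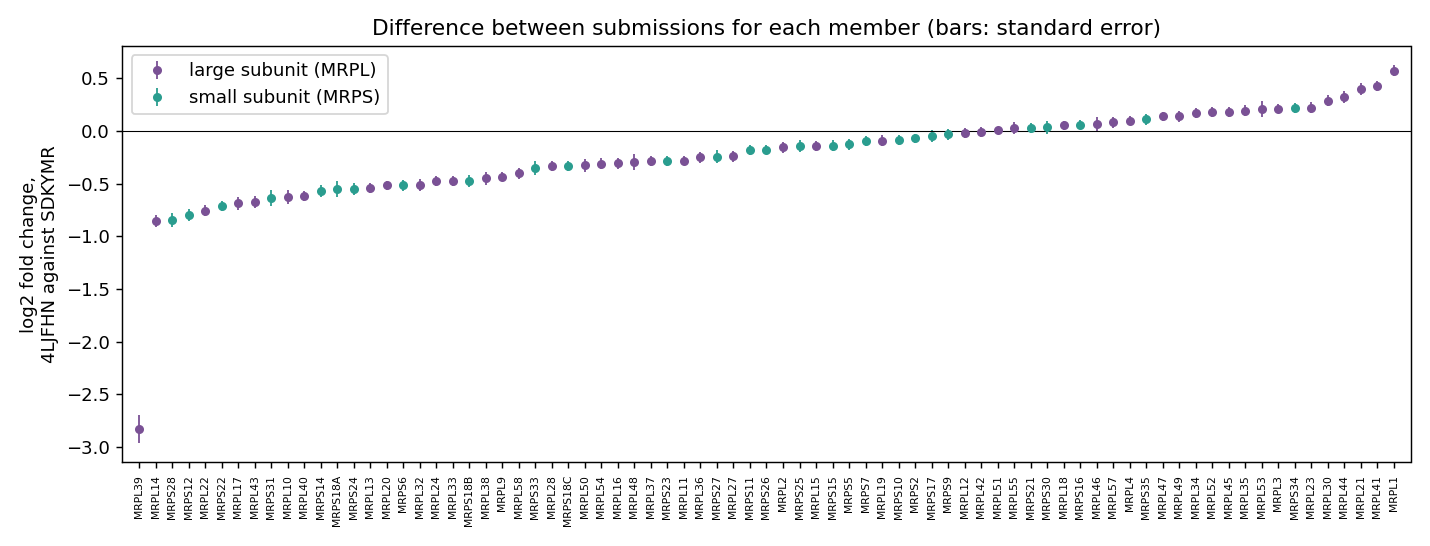
log2 fold change of 4LJFHN against SDKYMR for each of the 77 members, ordered by value, with the standard error as a bar and colours for the 2 subunits. MRPL39 stands at -2.83, and the other members lie between -0.86 and 0.57.

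By annotation (GENCODE, GRCh38), 41 of 77 members share exon bases with another gene, 29 of them on the opposite strand, so their counts may hold reads of a neighbour. Pseudogenes by name and biotype are listed for 35 members, 75 in all, and none exceeded 0.505 CPM in any library. An entry named MRPS31P5 but of lncRNA biotype is not among these and reached 4.22 CPM.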

How the data were processed

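Poly-A mRNA was sequenced by a commercial service from Hap1 lysates, per the labels' protocols. The authors deposited estimated counts and CPM per gene, per the file headers, in 2 tables. Per the submitters' processing notes the genome was GRCh38. The aligner, counter, annotation release and strand setting were not given in the sources used here. Counts were rounded and tested with edgeR 4.0.16 (R 4.3.3, filterByExpr, TMM factors, glmQLFit and glmQLFTest) on all 9 libraries, with group and submission as terms and 5 residual degrees of freedom. Benjamini-Hochberg adjustment ran over all 16908 genes tested. The 92 spike-in entries were left out of the tests. CPM were computed from the deposited counts over each library's total, with spike-in entries in the total. Those of the pseudogenes are as deposited. Alternatives were DESeq2 1.42.0, limma-voom (limma 3.58.1), other scaling, filters and submission handling, and leaving out each library. The code was tested on simulated data. The precision of counts is limited by totals of 9900899 to 12991061 per library. No library was a duplicate: within a group and submission, chi-square divided by its degrees of freedom was 1.48 to 2.41. Named members were those with a call, up to 10 per subunit and comparison by size, and the names fixed for the lists. MRPL54, MRPL19, MRPL41, MRPL33, MRPL39, MRPL45, MRPL48, MRPL17, MRPL55, KRT18, COL1A1, THY1 and TRUB2 fall outside that rule and were named after their values were seen. The members and lists were chosen with earlier results of these data known. Promoter sequences came from the RefSeq table, which held 69 of the 77 members.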

Additional observations from a re-analysis of the deposited data

How the results depend on the processing

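With no submission term, the R227Q counts were 0 members and 312 genes, the H448L counts 0 members and 147 genes, and 1 gene differed between the variants. The signs of MT-RNR2 (-0.031 in R227Q, -0.17 in H448L) and of MRPL10 in H448L (-0.18) turned. With 4LJFHN alone the counts were 6 members and 1138 genes for R227Q, and 4 members and 734 genes for H448L. DESeq2 gave 1546 genes for R227Q, 4 members and 733 genes for H448L, and 54 genes between the variants, where testing every gene with a count gave 122. The cause was not tested in any of these. Leaving out 1 library gave 6 to 27 members called in either direction and 1093 to 3262 genes for R227Q, 3 to 8 members and 253 to 1378 genes for H448L, and 4 to 91 genes between the variants. The higher share of all calls was 43.1% in R227Q and 37.3% in H448L, 54.0% and 47.2% with upper-quartile factors, and 32.7% and 19.5% with DESeq2. The median of the members stayed below 0 in every alternative run (-0.14 to -0.07 in R227Q, -0.21 to -0.05 in H448L).

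After group and submission were fitted, the residuals of same-numbered libraries had correlations of -0.40 to 0.12. The fit itself ties some residuals together, those of R227Q 1 and WT 3 among them. These correlations therefore cannot show whether the replicate numbers pair the samples. With the replicate number as a block beside the submission term, 21 members and 2669 genes were called in R227Q, 5 members and 1055 genes in H448L, 0 members and 31 genes between the variants, and 0 members for the R227Q effect between submissions. The large minus small median was -0.0062 in R227Q and 0.08 in H448L. The interaction of R227Q with submission could not be fitted without WT 3 or R227Q 1.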
